A study of Mus musculus with 2 samples.

Results

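The E2F and retinoblastoma family comprises transcription factors and their pocket protein partners that control entry into the cell cycle. Its members were taken as the 10 genes E2f1 to E2f8, Rb1 and Rbl1, matched by symbol in the deposited tables, and all 10 were listed in both libraries, among 16902 genes listed in at least 1 of them. The libraries are messenger RNA from EpCAM-positive epithelial cells of mouse breast tumours. The first is from PyMT;Zeb1cKO tumours, which carry the polyoma middle T oncogene and a conditional knockout of Zeb1, and the second from PyMT tumours, which carry the same oncogene. The study asked how Zeb1, a transcription factor of epithelial to mesenchymal transition, acts through these cells on tumour macrophages. The sources used here do not name the promoter that drives Cre or the oncogene, the strain and age of the mice, or the number of tumours in a library. With 1 library in each group no test between genotypes was possible, and genotype, animal and batch cannot be told apart.

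E2F proteins bind DNA as dimers with a DP partner (Tfdp1 or Tfdp2) at the promoters of genes for DNA replication, nucleotide synthesis and cell cycle control. The activating members E2F1, E2F2 and E2F3 are held in check by the retinoblastoma protein (Rb1) until cyclin-dependent kinases phosphorylate it. The canonical repressors E2F4 and E2F5 act mainly with the pocket proteins p107 (Rbl1) and p130 (Rbl2) in resting cells, E2F6 represses together with Polycomb proteins, and the atypical members E2F7 and E2F8 bind DNA without a DP partner and shut down target genes late in S phase. Several family genes are themselves E2F targets in mammalian cells.

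Promoter sequences of members that were higher together in the PyMT;Zeb1cKO library are shown here, since E2F proteins and MuvB complexes bind promoters through short motifs. The RefSeq promoter table (GRCm38.p6, the assembly that mm10 names) gives windows from 250 bases before to 50 after a transcript start, 9 of them for E2f1, E2f2, E2f3, E2f6, E2f7, E2f8 and Rbl1, which are 7 of the 10 members. It gives no window for E2f4, E2f5 or Rb1, so E2f6 is the only member with a window that was not at least 2-fold higher. The windows thus cannot compare members that were higher with members that were not. The E2f1 window also has none of the letters put in capitals below and is not printed. The sequences run 5′ to 3′ on the strand of the gene and end at the base before the start, except for E2f2, whose site lies after it. Capitals mark the E2F motif (TTTCCCGC, TTTGGCGC, TTTCGCGC or TTTGCCGC), the cell cycle homology region or CHR (TTTGAA), through which MuvB complexes bind, and the CCAAT box (CCAAT), each searched on both strands. The Sp1 box (GGGCGG) was searched too and is not in capitals.
E2f2, first start, chr4:136172294-136172323, plus strand: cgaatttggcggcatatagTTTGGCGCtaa
E2f3, first start, chr13:29986064-29986313, minus strand: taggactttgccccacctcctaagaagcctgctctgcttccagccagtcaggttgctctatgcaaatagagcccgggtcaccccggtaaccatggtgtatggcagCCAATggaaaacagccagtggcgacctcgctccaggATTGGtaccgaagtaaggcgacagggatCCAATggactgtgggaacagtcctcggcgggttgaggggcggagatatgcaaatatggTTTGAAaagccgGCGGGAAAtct
E2f7, chr10:110745189-110745438, plus strand: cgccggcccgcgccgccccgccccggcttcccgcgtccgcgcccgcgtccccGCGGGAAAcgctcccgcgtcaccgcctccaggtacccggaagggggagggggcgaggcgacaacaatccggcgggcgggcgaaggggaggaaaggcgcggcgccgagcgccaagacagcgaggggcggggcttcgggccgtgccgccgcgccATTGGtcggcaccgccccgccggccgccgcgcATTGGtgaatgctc
E2f8, chr7:48881597-48881846, minus strand: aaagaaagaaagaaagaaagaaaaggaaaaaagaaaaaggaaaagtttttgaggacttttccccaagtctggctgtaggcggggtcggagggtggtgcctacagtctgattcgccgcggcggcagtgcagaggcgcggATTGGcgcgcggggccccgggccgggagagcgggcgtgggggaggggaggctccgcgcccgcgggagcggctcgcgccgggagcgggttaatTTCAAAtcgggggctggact
Rbl1, chr2:157204535-157204784, minus strand: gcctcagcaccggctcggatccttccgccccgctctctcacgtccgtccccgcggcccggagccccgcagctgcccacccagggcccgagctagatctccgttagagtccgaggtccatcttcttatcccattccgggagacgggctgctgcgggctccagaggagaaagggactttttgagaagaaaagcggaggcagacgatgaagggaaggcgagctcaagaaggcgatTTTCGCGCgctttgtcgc
E2f6, shown as a member within 2-fold whose window has none of these letters, chr12:16810715-16810964, plus strand: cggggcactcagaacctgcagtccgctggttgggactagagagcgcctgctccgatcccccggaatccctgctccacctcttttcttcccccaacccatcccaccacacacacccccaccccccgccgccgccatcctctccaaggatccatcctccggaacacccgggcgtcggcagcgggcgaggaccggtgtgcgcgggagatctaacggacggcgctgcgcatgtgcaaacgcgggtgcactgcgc

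An E2F motif stood in 4 of the 7 members with a window (E2f2, E2f3, E2f7 and Rbl1) and in 4 of their 9 windows. It was in 2.26% of the 32851 windows in the table, and in at least 1 window of 4.76% of the 9761 compared genes that have one. In Rbl1 it began 18 bases before the start and in E2f3 11 bases before, on the other strand, with a CHR 23 bases before the start of the same window. In E2f7 it lay farther out, 198 bases before the start, and in E2f2 it began 39 bases after the first start. That RefSeq start of E2f2 lies 120 bases upstream of the first coding start in GENCODE, so the E2F motif lies before the GENCODE start. A CHR was found in 3 members, E2f3, E2f8 (20 bases before the start) and E2f2, against 17.9% of all windows and 14.3% of compared genes. The CHR of E2f2 lies 31 bases before its second start, which is 8388 bases downstream of the first coding start in GENCODE, and its first window holds none. A CCAAT box was in 4 members (E2f2, E2f3, E2f7 and E2f8), against 37.4% of windows and 43.2% of compared genes. The Sp1 box was in 6 members, all of the 7 but E2f6, against 35.7% of windows and 69.4% of compared genes. The Sp1 box of E2f2 lies in its second window alone. Those of E2f1 lie downstream of its first coding start in GENCODE. Within the member windows 0 hits of different motifs overlapped. The E2f1 window held no E2F, CHR or CCAAT letters, but its start lies 466 bases downstream of the first coding transcript start that GENCODE gives for E2f1, so the upstream start is outside it. A match is a description of the letters and does not show binding.

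**Figure D1:**
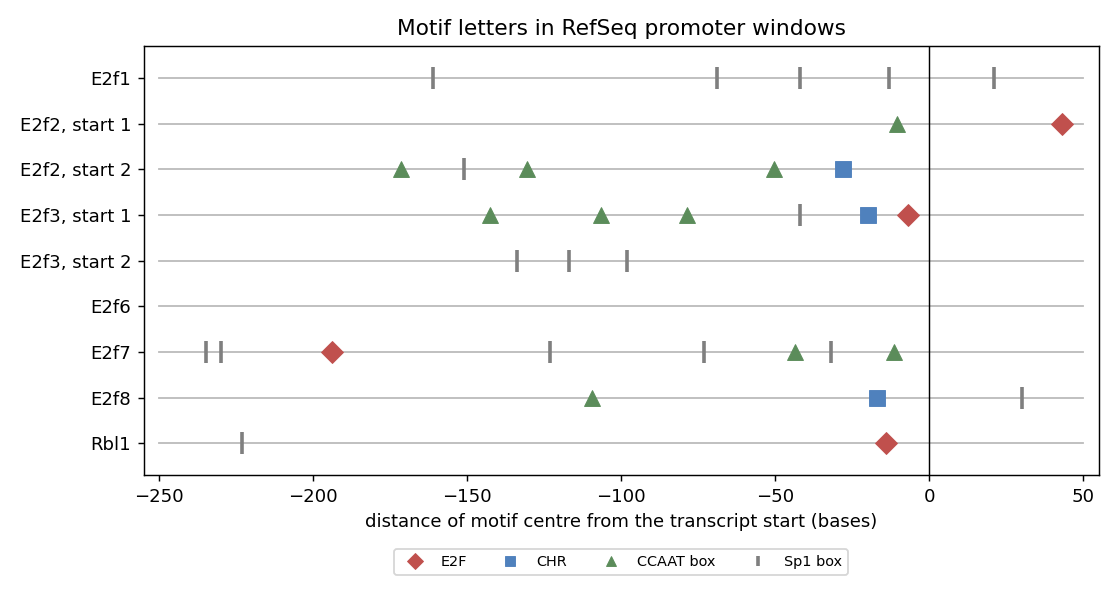
Positions of motif letters in the 9 RefSeq promoter windows of 7 members. The x axis is the distance of the motif centre from the transcript start in bases, and each symbol is 1 match on either strand. E2F letters appear in E2f2, E2f3, E2f7 and Rbl1, and the E2f6 window holds no match.

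Levels are given as FPKM (fragments scaled to gene length and to the depth of the library, as the authors deposited it). Differences are given as the count ratio, the estimated count over the total of its library, PyMT;Zeb1cKO over PyMT, with an exact 95% Clopper-Pearson interval that covers counting error only. The libraries held 21277484 estimated counts (PyMT;Zeb1cKO) and 21580274 (PyMT). Of the 12653 genes that reached an FPKM of 1 in the PyMT;Zeb1cKO or the PyMT library, 15.4% were at least 2-fold higher in the PyMT;Zeb1cKO library and 11.7% were lower by that much, 27.0% together. Of the genes past 2-fold 56.8% were higher, but 45.9% after scaling by the median ratio and 47.0% with TMM factors. The median log2 count ratio of all these genes was 0.17, a ratio of 1.12, and member ratios are also given relative to it. Against that background, 6 of the 10 members were at least 2-fold higher (E2f1, E2f2, E2f3, E2f7, E2f8 and Rbl1) and 0 were lower by that much. On the log2(FPKM + 1) scale, where 10.2% of genes were past 2-fold higher and 8.78% past 2-fold lower, 4 members were past it, E2f1, E2f2, E2f7 and E2f8, all higher. E2f2, E2f7 and E2f8 were below an FPKM of 1 in the PyMT library and entered the compared genes through the PyMT;Zeb1cKO library alone, so for them the filter favours a difference. Zeb1, the targeted gene, had 38 estimated counts in the PyMT;Zeb1cKO library and 96 in the PyMT library, a ratio of 0.401 (0.268 to 0.59). It was at 0.32 FPKM in the PyMT;Zeb1cKO library and 0.79 FPKM in the PyMT library, below the filter in both, and is not among the compared genes. The deleted part of Zeb1 is not stated, so reads outside it may still be counted. Which cells the remaining reads come from was not tested. Epcam, the gene of the sorted surface protein, was at 479.66 FPKM in the PyMT;Zeb1cKO library and 740.82 FPKM in the PyMT library.

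All 3 activating E2F genes were at least 2-fold higher in the PyMT;Zeb1cKO library, although E2f3 was so on the count ratio and not under every scaling. In bulk RNA, more cells of a dividing kind and more RNA per cell cannot be told apart, here and for the target genes. E2f1 (chromosome 2, 154559407 to 154569892, minus strand, GRCm38), the classical partner of the retinoblastoma protein, was at 10.97 FPKM and 598 estimated counts in the PyMT;Zeb1cKO library, against 4.28 FPKM and 235 counts in the PyMT library. Its count ratio was 2.58 (2.22 to 3.01), and 8.95% of the compared genes had a higher one. E2f2 (chromosome 4, 136172394 to 136196057, plus strand) had 5.63 FPKM and 486 counts in the PyMT;Zeb1cKO library, against 0.81 FPKM and 70 counts in the PyMT library. It had the highest ratio of the activators, 7.04 (5.47 to 9.18), and 1.94% of genes lay above it. E2f3 (chromosome 13, 29906575 to 29986063, minus strand), which has a start for a long and one for a short protein, had 8.5 FPKM and 859 counts in the PyMT;Zeb1cKO library, against 4.19 FPKM and 414 counts in the PyMT library. Its ratio of 2.1 (1.87 to 2.37) stood at the 2-fold line, and it was 1.88 after scaling by the median ratio, 1.9 with TMM factors, 1.95 in TPM and 1.83 on the log2(FPKM + 1) scale. The order of the activators' levels was E2f1, E2f3 and E2f2 in both libraries. In the PyMT library E2f1 and E2f3 did not differ in level beyond counting error (1.02-fold, 0.867 to 1.2), whereas in the PyMT;Zeb1cKO library E2f1 was 1.29-fold above E2f3 (1.16 to 1.43).

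The canonical repressors lay within 2-fold. E2f4 (chromosome 8, 105297663 to 105305370, plus strand), the most abundant member in both libraries, was at 28.12 FPKM and 1107.15 estimated counts in the PyMT;Zeb1cKO library, against 20.21 FPKM and 800.2 counts in the PyMT library. Its ratio was 1.4 (1.28 to 1.54), and 1.25 relative to the median of all genes. Its counts are not whole numbers, because some reads were divided between gene models, so its ratio is uncertain. E2f6 (chromosome 12, 16810963 to 16839742, plus strand) was at 12.43 FPKM and 601 counts in the PyMT;Zeb1cKO library, against 9.14 FPKM and 445 counts in the PyMT library. Its ratio of 1.37 (1.21 to 1.55) did not differ from that of E2f4 beyond counting error. E2f5 (chromosome 3, 14578641 to 14606309, plus strand) was the only E2F gene with a ratio below 1. It was at 5.2 FPKM and 176 counts in the PyMT;Zeb1cKO library, against 6.36 FPKM and 216 counts in the PyMT library, a ratio of 0.826 whose interval of 0.673 to 1.01 held 1. Relative to the median of all genes its ratio was 0.737 (0.601 to 0.904).

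The atypical repressors had the lowest E2F levels beside E2f2 in the PyMT library and some of the largest ratios of the family. E2f7 (chromosome 10, 110745439 to 110787384, plus strand) was at 1.67 FPKM and 188 counts in the PyMT;Zeb1cKO library, against 0.18 FPKM and 20 counts in the PyMT library. Its ratio was 9.53, with a wide interval of 6.0 to 16.0 because of the 20 counts, and 1.17% of genes had a higher one. E2f8 (chromosome 7, 48866429 to 48881596, minus strand) was at 5.94 FPKM and 446 counts in the PyMT;Zeb1cKO library, against 0.88 FPKM and 67 counts in the PyMT library, a ratio of 6.75 (5.21 to 8.86). These low levels make the pseudocount matter: on the log2(FPKM + 1) scale the difference was 2.26-fold for E2f7, 3.69-fold for E2f8 and 3.66-fold for E2f2. E2f8 was the more abundant of the atypical genes in both libraries, and E2f7 the lowest of all 10 members.

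**Figure D2:**
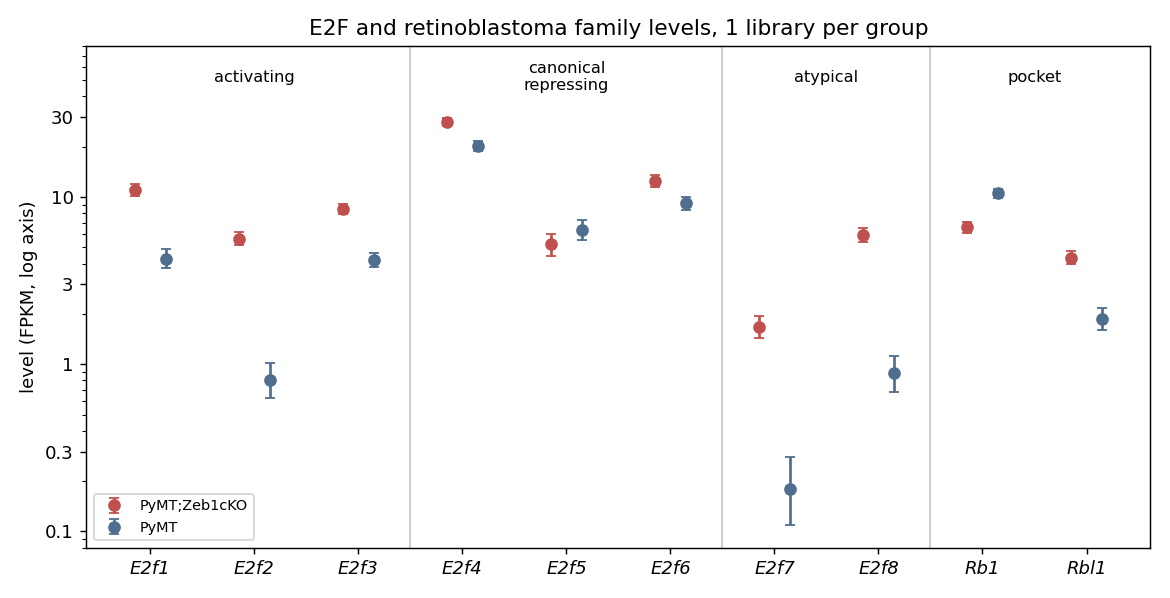
Level of each member in the PyMT;Zeb1cKO library (left of each pair) and the PyMT library (right), in FPKM on a log axis. Points are 1 library each and bars are exact 95% Poisson intervals for counting error. E2f4 is highest (28.12 in PyMT;Zeb1cKO, 20.21 in PyMT) and E2f7 lowest (1.67 in PyMT;Zeb1cKO, 0.18 in PyMT).

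The pocket protein genes went in opposite directions. Rb1 (chromosome 14, 73183673 to 73325822, minus strand), which encodes the retinoblastoma protein, was at 6.57 FPKM and 625 counts in the PyMT;Zeb1cKO library, against 10.49 FPKM and 1008 counts in the PyMT library. Its ratio was 0.629 (0.568 to 0.696), and 0.561 relative to the median of all genes (0.507 to 0.62), which is within 2-fold on both scales, and 82.4% of genes had a higher ratio. Rbl1 (chromosome 2, 157145893 to 157204534, minus strand), which encodes p107 and is an E2F target in mammalian cells, was at 4.34 FPKM and 461 counts in the PyMT;Zeb1cKO library, against 1.87 FPKM and 171 counts in the PyMT library. Its count ratio was 2.73 (2.29 to 3.28), but 1.86 on the log2(FPKM + 1) scale. Part of that gap comes from the gene length the authors used, 5167.26 bases in the PyMT;Zeb1cKO library and 4437.85 in the PyMT library. This length averages over the 3 transcripts listed for Rbl1, of which 1 is an unnamed model. Without a pseudocount the FPKM ratio of Rbl1 was 2.32. The third pocket protein gene, Rbl2, is not a member of the set and encodes p130. It was at 6.66 FPKM in the PyMT;Zeb1cKO library and 6.05 in the PyMT library, a ratio of 1.13 (0.997 to 1.28). Of the summed FPKM of the 3 pocket protein genes, Rb1 held 37.4% in the PyMT;Zeb1cKO library and 57.0% in the PyMT library. Rbl1 held 24.7% in the PyMT;Zeb1cKO library and 10.2% in the PyMT library, and Rbl2 37.9% in the PyMT;Zeb1cKO library and 32.9% in the PyMT library. The ratio of Rbl1 was 4.35 times that of Rb1 (3.54 to 5.35), a comparison that does not depend on how the libraries are scaled.

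Ordered by FPKM level, the PyMT;Zeb1cKO library ran E2f4, E2f6, E2f1, E2f3, Rb1, E2f8, E2f2, E2f5, Rbl1 and E2f7. The neighbours from Rb1 to E2f5 in that order did not differ beyond counting error, with Rb1 1.11-fold above E2f8 (0.978 to 1.25), E2f8 1.06-fold above E2f2 (0.926 to 1.2) and E2f2 1.08-fold above E2f5 (0.909 to 1.29). The PyMT library ran E2f4, Rb1, E2f6, E2f5, E2f1, E2f3, Rbl1, E2f8, E2f2 and E2f7. There Rb1 stood 1.15-fold above E2f6 (1.03 to 1.29), and E2f8 and E2f2 did not differ beyond counting error (1.09-fold, 0.765 to 1.54). Rb1 was thus the fifth member by level in the PyMT;Zeb1cKO library and the second in the PyMT library.

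Ordered by count ratio, the members ran E2f7, E2f2, E2f8, Rbl1, E2f1, E2f3, E2f4, E2f6, E2f5 and Rb1. E2f7, E2f2 and E2f8 were not separated by counting error, with E2f7 over E2f2 at 1.35 (0.787 to 2.42) and E2f2 over E2f8 at 1.04 (0.716 to 1.52). E2f8 stood 2.47 times above Rbl1 (1.79 to 3.42). Rbl1 and E2f1 were not separated (1.06, 0.835 to 1.35), nor were E2f4 and E2f6 (1.02, 0.877 to 1.2). The other neighbours were, E2f3 over E2f4 at 1.5 (1.29 to 1.74), E2f6 over E2f5 at 1.66 (1.3 to 2.11), E2f5 over Rb1 at 1.31 (1.04 to 1.65) and, narrowly, E2f1 over E2f3 at 1.23 (1.01 to 1.49). E2f2 thus stood beside the atypical repressors in this order, above E2f1 and E2f3.

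**Figure D3:**
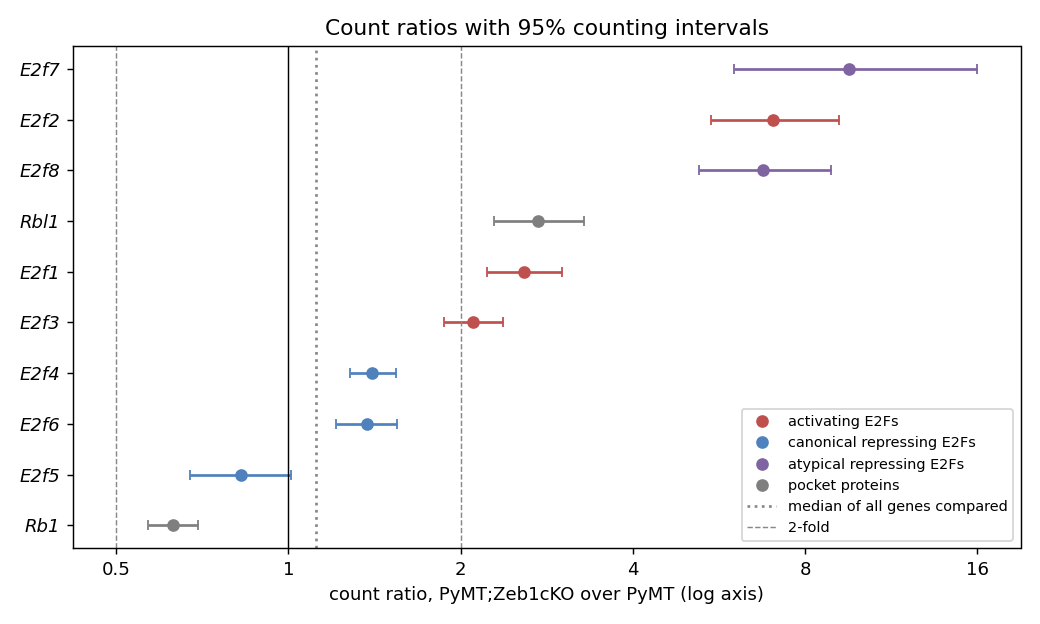
Count ratio of each member, PyMT;Zeb1cKO over PyMT, on a log axis with exact 95% counting intervals, coloured by role. Dashed lines mark 2-fold and the dotted line the median of all genes compared (1.12). E2f7, E2f2 and E2f8 lie between 6.75 and 9.53, and Rb1 is lowest at 0.629.

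Setting activating against repressing E2Fs by summed counts, the ratio of the activators was 2.1 times that of the canonical repressors (1.88 to 2.34) and 0.371 times that of the atypical repressors (0.288 to 0.473). The activators had 1943 counts in the PyMT;Zeb1cKO library and 719 in the PyMT library. The canonical repressors had 1884 counts in the PyMT;Zeb1cKO library and 1461 in the PyMT library. The atypical repressors had 634 in the PyMT;Zeb1cKO library and 87 in the PyMT library. The atypical over the canonical repressors stood at 5.65 (4.46 to 7.23). These ratios of ratios are free of the scaling between libraries, and their intervals cover counting error only. Relative to E2f4, E2f5 and E2f6 the summed activators were higher in the PyMT;Zeb1cKO library, and the sum of E2f7 and E2f8 more so. This order of the sums does not hold for E2f2 taken singly. E2f2 over E2f8 was 1.04 (0.716 to 1.52) and E2f7 over E2f2 was 1.35 (0.787 to 2.42). All 3 of these genes passed the FPKM filter through the PyMT;Zeb1cKO library alone. Per length, the 8 E2F genes summed to 78.46 FPKM in the PyMT;Zeb1cKO library and 46.05 FPKM in the PyMT library. Activators made up 32.0% of that sum in the PyMT;Zeb1cKO library and 20.2% in the PyMT library. Atypical repressors made up 9.7% in the PyMT;Zeb1cKO library and 2.3% in the PyMT library. Canonical repressors, the largest class in both, made up 58.3% in the PyMT;Zeb1cKO library and 77.5% in the PyMT library. The summed FPKM of the activators was 3.82 times the FPKM of Rb1 in the PyMT;Zeb1cKO library, against 0.885 times in the PyMT library.

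**Figure D4:**
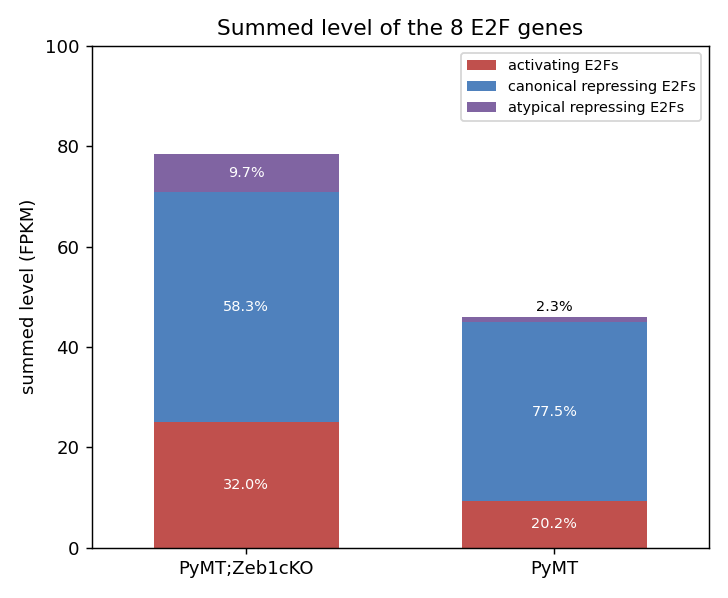
Summed FPKM of the 8 E2F genes in the PyMT;Zeb1cKO library (left) and the PyMT library (right), 1 library each, split by class with the percent of the sum. The activating share is 32.0% in PyMT;Zeb1cKO and 20.2% in PyMT, and the atypical share 9.7% in PyMT;Zeb1cKO and 2.3% in PyMT.

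Of the dimerisation partners that most E2F proteins need, 1 of the 2 genes was at least 2-fold higher. Tfdp1, which encodes DP1, was at 67.6 FPKM in the PyMT;Zeb1cKO library and 25.67 FPKM in the PyMT library, a ratio of 2.66 (2.5 to 2.84). Tfdp2 was at 5.47 FPKM in the PyMT;Zeb1cKO library and 4.79 FPKM in the PyMT library, a ratio of 1.15 (1.04 to 1.27), close to the median of all genes. The list of DREAM and MuvB genes holds 5 MuvB subunits (Lin9, Lin37, Lin52, Lin54 and Rbbp4), which p107 or p130 and E2F4 join in resting cells, together with Rbl2, Mybl2 and Foxm1. Of these 8 genes 3 were at least 2-fold higher and 5 within 2-fold. Of all compared genes 15.4% were at least 2-fold higher. Mybl2 was at 9.68 FPKM in the PyMT;Zeb1cKO library and 1.94 FPKM in the PyMT library, a ratio of 5.02 (4.2 to 6.03). Foxm1 was at 14.01 FPKM in the PyMT;Zeb1cKO library and 2.98 FPKM in the PyMT library, a ratio of 4.72 (4.14 to 5.41). Mybl2 and Foxm1 encode factors that take the place of the repressors on MuvB in dividing cells. Lin9 was the 1 MuvB subunit past 2-fold, with a ratio of 2.38 (1.97 to 2.89), whereas the subunits Lin52 and Lin37 were near the median of all genes at 1.12 and 1.17.

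Of 8 cyclins and kinases that act on the retinoblastoma protein, 5 were at least 2-fold higher and 0 lower, beside 15.4% and 11.7% of all compared genes. With the median ratio or TMM factors 4 were higher. It was 2 of the 5 genes left by an FPKM of at least 5, and 3 of the 5 with whole counts. Cyclin E1 (Ccne1), a known E2F target, was at 16.73 FPKM in the PyMT;Zeb1cKO library and 2.02 FPKM in the PyMT library, a ratio of 8.34 (6.61 to 10.7). Ccne2 had a higher ratio, 21.5 (8.93 to 67.6), on 4.8 estimated counts in the PyMT library, and passed the FPKM filter through the PyMT;Zeb1cKO library alone. The counts of both cyclin E genes and of Ccnd3 are not whole. Cyclin D3 (Ccnd3) had the lowest ratio of the list, 0.686 (0.651 to 0.723). Of 7 inhibitors of these kinases, 2 were at least 2-fold higher and 2 lower, beside the same shares of all compared genes. Cdkn1a, which encodes p21, was at 39.92 FPKM in the PyMT;Zeb1cKO library and 226.87 FPKM in the PyMT library, a ratio of 0.178 (0.168 to 0.188). Cdkn2b (p15) had a ratio of 0.423. Cdkn2c, which encodes p18 and is an E2F target in mammalian cells, was at 20.54 FPKM in the PyMT;Zeb1cKO library and 5.85 FPKM in the PyMT library, a ratio of 3.84 (3.3 to 4.48), and Cdkn1c (p57) had a ratio of 2.44. Cdk4, the cyclin D kinase, was at 560.38 FPKM in the PyMT;Zeb1cKO library and 235.73 FPKM in the PyMT library, a ratio of 2.41 (2.34 to 2.48). Ccnd2 (3.32) also lay above 2-fold, while Ccnd1 (1.66) and Cdk2 (1.59) did not. Of the other inhibitors, Cdkn2a, whose locus encodes p16 and p19Arf, had a ratio of 1.14 (0.986 to 1.31).

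Most genes on the G1/S and G2/M target lists were higher in the PyMT;Zeb1cKO library. Of 40 G1/S targets of E2F, 37 were at least 2-fold higher in the PyMT;Zeb1cKO library and 0 lower, beside 15.4% and 11.7% of all compared genes. Their median log2 count ratio was 2.09, against 0.17 for all genes compared. Cdc6, which loads the replicative helicase, was at 5.09 FPKM in the PyMT;Zeb1cKO library and 0.32 FPKM in the PyMT library, the highest ratio of the list at 16.0 (11.0 to 23.9). Fbxo5 (Emi1) followed at 11.6, and Rrm2, a ribonucleotide reductase subunit, at 9.88. The lowest ratio was that of Rfc3, a subunit of the clamp loader, at 1.72, and Rpa2, a subunit of the single-stranded DNA binding complex, was at 1.87. The 22 G2/M genes that MuvB and FOXM1 drive were all at least 2-fold higher, from 4.28 (Cdc20) to 10.9 (Cenpe), with a median log2 ratio of 2.71. Of the 40 G1/S targets, 32 had a higher ratio than E2f1, 35 a higher one than E2f3, 6 a higher one than E2f2 and 3 a higher one than E2f7. All 40 stood above E2f4, E2f5, E2f6 and Rb1. In the PyMT library, 6 of the G1/S and 4 of the G2/M genes were below an FPKM of 1, Cdc6 and Cenpe among them. These genes entered the comparison through the PyMT;Zeb1cKO library alone, so for them the filter favours a difference.

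Other branches of the pathway are read beside the 15.4% of all compared genes that were at least 2-fold higher and the 11.7% that were lower. Of the 6 compared apoptotic targets of E2F1, 2 were at least 2-fold lower and 0 higher, with a median log2 ratio of -0.41. The lower ones were Bbc3 (Puma), at 15.49 FPKM in the PyMT;Zeb1cKO library and 34.1 FPKM in the PyMT library, and Trp73 (p73), at 0.8 FPKM in the PyMT;Zeb1cKO library and 1.65 FPKM in the PyMT library. Trp73 passed the FPKM filter through the PyMT library alone, where it is higher. With pseudocounts of 1 or 0.1 on the log2(FPKM) scale only Bbc3 was past 2-fold, and when a minimum FPKM of 5 left 4 genes it was again the 1 past 2-fold, with a median of 0.06, so no direction is read for the list. Of 12 corepressor partners of the retinoblastoma protein, 2 were at least 2-fold higher, Hdac2 (2.28) and Smarca2 (2.07), with a median of 0.41, a share near that of all genes. Of 10 partners of E2F6 in the Polycomb complex PRC1.6, 3 were higher, Pcgf6 (2.73), Cbx1 (2.15) and Cbx3 (2.04), with a median of 0.35. With the median ratio or TMM factors, 1 gene of each of these partner lists was past 2-fold. Of the 6 germline genes that E2F6 keeps silent in somatic cells, 2 were listed, with at most 2 estimated counts in a library, and no fold is given. Of the 7 multiciliation genes that work with E2F4 and E2F5, 3 were listed and 2 compared, too few to describe as a list. The 1 past 2-fold was Myb, also a factor of dividing progenitor cells, with 242 counts in the PyMT;Zeb1cKO library and 8 in the PyMT library, a ratio of 30.7 (15.3 to 71.9), whereas Foxj1, the ciliation factor, had a ratio of 1.09 (0.744 to 1.59). Myb, below an FPKM of 1 in the PyMT library, entered through the PyMT;Zeb1cKO library alone, so the filter favours its difference.

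**Figure D5:**
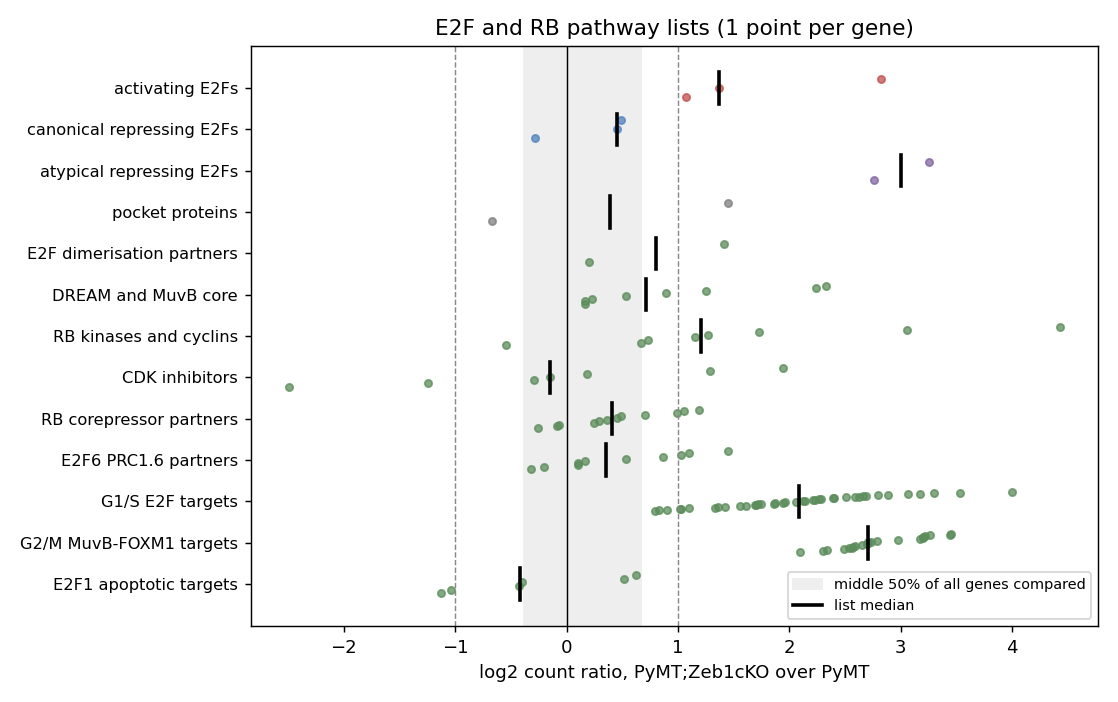
Log2 count ratio, PyMT;Zeb1cKO over PyMT, of each compared gene in the family classes and pathway lists. Each point is 1 gene, black bars are list medians, the grey band is the middle 50% of all genes compared, and dashed lines mark 2-fold. The G1/S and G2/M lists have medians of 2.09 and 2.71, and the canonical repressors 0.45.

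Across the genome, genes whose promoter window holds an E2F motif were at least 2-fold higher at a larger share than genes without it. Of the 9761 compared genes with a window 14.6% were at least 2-fold higher and 10.6% lower. Of 465 compared genes with the motif 24.9% were at least 2-fold higher and 6.24% lower, with a median log2 ratio of 0.41. Without the motif 14.1% of 9296 genes were higher and 10.8% lower, with a median of 0.17. Leaving out every gene of the fixed lists, the motif group had 21.8% higher of 440 genes. For comparison, the share higher was 21.2% with a CHR and 13.6% without, 16.7% with a CCAAT box and 13.1% without, and 13.6% with an Sp1 box and 17.0% without. These shares are descriptions with no test. Among the 33 G1/S targets with a window 14 held the E2F motif, and among the 17 G2/M genes with a window 12 held a CHR and 1 the E2F motif.

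Markers of the epithelium and of some other cells differed between the libraries beside these results. Of all compared genes, 15.4% were at least 2-fold higher and 11.7% lower, and the marker counts are read beside these shares. In lists this short, 0 or 1 marker past 2-fold is near them. All 6 epithelial markers had ratios below 1, from 0.393 (Krt18, the 1 past 2-fold) to 0.699 (Cdh1), and their summed level was 2502.94 FPKM in the PyMT;Zeb1cKO library, against 4946.46 FPKM in the PyMT library. All 5 neutrophil markers were at least 2-fold lower, with a summed level of 16.24 FPKM in the PyMT;Zeb1cKO library and 279.64 FPKM in the PyMT library, and with Ngp and Camp at 0 in the PyMT;Zeb1cKO library. Macrophage markers summed to 489.2 FPKM (PyMT;Zeb1cKO) and 493.54 FPKM (PyMT), with 0 of 6 markers past 2-fold. Their ratios went both ways, from 0.72 (C1qa) to 1.8 (Lyz2), with 4 of the 6 above 1. General leukocyte markers summed to 66.33 FPKM (PyMT;Zeb1cKO) and 70.78 FPKM (PyMT), with 0 of 5 past 2-fold. Fibroblast markers summed to 485.69 FPKM (PyMT;Zeb1cKO) and 406.21 FPKM (PyMT), with 1 of 5 at least 2-fold higher, Lum. Single fibroblast markers went both ways, from a ratio of 0.635 (Dcn) to 2.28 (Lum). Endothelial markers summed to 36.84 FPKM (PyMT;Zeb1cKO) and 53.18 FPKM (PyMT), with 0 of 4 past 2-fold. Erythroid markers summed to 946.75 FPKM (PyMT;Zeb1cKO) and 1401.92 FPKM (PyMT), with 1 of 3 compared genes at least 2-fold lower, Alas2. T cell markers summed to 1.06 FPKM (PyMT;Zeb1cKO) and 0.97 FPKM (PyMT) and B cell markers to 0.4 FPKM (PyMT;Zeb1cKO) and 0.34 FPKM (PyMT), with no marker of either list at an FPKM of 1. Trac, Ms4a1 and Epb42 were listed in neither library. The marker lists do not cover every cell type, and skeletal muscle, for example, has no list. The part of any of these cells, listed or not, in the differences of the E2F and retinoblastoma genes was not tested.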

How the data were processed

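RNA was sequenced from EpCAM-positive tumour cells, 1 library per group. Per the file headers, the authors' deposited tables give an expected count, an FPKM value and a gene length per gene, and they list genes above 0. DESeq, RSEM 1.2.8, Bowtie2 2.2.5, HISAT2 2.1.0 and mm10 are named per the submitters' processing notes, without roles, and the sources used here name no annotation. Expected counts were rounded to whole numbers and divided by library totals, and a gene at 0 in 1 library entered a ratio at a floor of 3 counts. Genes reaching an FPKM of 1 in a library were compared, with 2-fold as a rule of size and no p-value. Unnamed gene models held 2.68% of counts (PyMT;Zeb1cKO) and 2.33% (PyMT). Contrasts of gene groups are conditional odds ratios of summed counts. Intervals are exact, at 95%, and cover counting error only. The count ratio, its interval and the interval of the odds ratio were tested on simulated Poisson counts, which hold counting error only. The filter, the lists and the motif search were not simulated, nor was spread between animals.

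The members and the 24 lists (186 genes, 175 of them listed) were chosen with earlier results of these data known. Named genes are the members, Rbl2, Tfdp1, Tfdp2, Zeb1, Epcam, up to 3 genes at the top and up to 3 at the bottom of each pathway list by ratio, and the marker with the highest FPKM of each cell type list, of which some are not reported here. The markers named, Cdk4, and the contrasts of single members, of pocket proteins and of motif genes outside the lists were chosen after their values were seen. Whether counting used strand is not stated, so reads of overlapping genes cannot be told apart. Coordinates are from GENCODE M21 (GRCm38) by symbol, and promoters from RefSeq by gene number. Alternatives were log2(FPKM) with pseudocounts of 1 and 0.1, a median ratio, TMM factors from edgeR 4.0.16 (R 4.3.3), TPM, other filters, 1.5-fold, whole counts only, and members left out of sums. The software was scipy 1.17.1, pandas 2.3.3, numpy 2.4.6, matplotlib 3.10.9 and Python 3.11.15.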

Additional observations from a re-analysis of the deposited data

How the results depend on the processing

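No paired analysis was possible because each group has 1 library. No member ratio crossed 1 under any scaling or pseudocount tried. Ranges were 2.27 to 2.58 for E2f1, 3.66 to 7.04 for E2f2, 1.83 to 2.1 for E2f3, 2.26 to 9.53 for E2f7, 3.69 to 6.75 for E2f8, 1.86 to 2.73 for Rbl1, 1.25 to 1.4 for E2f4, 1.22 to 1.37 for E2f6, 0.737 to 0.842 for E2f5 and 0.561 to 0.659 for Rb1. The number of pocket protein genes past 2-fold was 1 as reported, 0 on the log2(FPKM + 1) scale, 0 with an FPKM of at least 5 (Rbl1 is then not compared) and 2 at 1.5-fold, where Rb1 counts as lower. An FPKM of at least 5 also left 1 atypical repressor, E2f8, since E2f7 is then not compared. Genes past 2-fold numbered 3422 as reported, 5610 with no filter, 2143 with an FPKM of at least 5 and 6116 at 1.5-fold. Of the 40 G1/S genes, 34 to 37 were at least 2-fold higher over the scalings and pseudocounts. It was 32 of the 35 left by an FPKM of at least 5, beside 1219 of all 9439 genes. With whole counts only it was 34 of 37, beside 1546 of all 10631. At 1.5-fold it was 40 of 40, beside 3659 of all 12653. The activating over canonical contrast of 2.1 was 1.74 without E2f2 and 2.76 without E2f3. The activating over atypical contrast of 0.371 was 0.488 without E2f3 and 0.288 without E2f8, and the atypical over canonical contrast of 5.65 was 7.29 without E2f8. None of these contrasts changed direction. The members hold unequal counts, and leaving one out changes the sums by construction. Of the apoptotic targets 2 were lower as reported and 1 with either pseudocount or an FPKM of at least 5, where the median turned to 0.06, a filter that leaves 4 genes. The germline list gives no value because none of its genes was compared. Depth limits E2f7 most, at 20 counts in the PyMT library. With 1 library per group, the spread between animals is unknown.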
